A study of Arabidopsis thaliana with 24 samples.

Results

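Glutathione S-transferases were followed through the RNA-seq data of Arabidopsis thaliana wild type Col-0 and the double mutant dpe2/phs1, which lacks the cytosolic transglucosidase DPE2 and the plastidial phosphorylase PHS1. The members were all genes whose deposited description contains "glutathione S-transferase" or "glutathione transferase", in any case, which gave 51 of the 33044 genes. By gene name 23 of them were tau class (GSTU), 12 were phi class (GSTF) and 16 belonged to other classes. These 16 were 3 lambda, 3 theta and 2 zeta members, 2 dehydroascorbate reductases, the tetrachlorohydroquinone dehalogenase-like TCHQD, the microsomal AT1G65820 and 4 genes with no class name. GSTU5, GSTU6, GSTU14, GSTU15, GSTU19, GSTF9 and DHAR3 carry names of the family, but their descriptions do not match, so they are no members.

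The 24 libraries form 8 groups of 3 biological replicates, named d for dpe2/phs1 and w for Col-0, followed by the period. The groups dP and wP are whole shoots of the Prior Period at 3 weeks after germination. The groups dY and wY (young leaves with petioles) and dM and wM (mature leaves with petioles) come from the period of reduced granule number (RGN) at 5 weeks, and dR and wR are whole shoots of the Recovery Period at 7 weeks. Tissue and age change together between RGN and the other periods and cannot be told apart. The mutant carries both lesions, so the effects of either alone cannot be told apart.

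Glutathione S-transferases join the tripeptide glutathione to reactive or foreign compounds, or use it to reduce peroxides and oxidized ascorbate, and conjugates are moved into the vacuole by ABC transporters. Tau and phi are the plant classes that expanded most, often as tandem copies, and many of their genes are switched on by oxidative stress, pathogens, salicylic acid and herbicide safeners. Lambda members and dehydroascorbate reductases carry a catalytic cysteine and act as reductases, and zeta members isomerize an intermediate of tyrosine breakdown.

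The sequence before the gene start is shown for 3 members that turned out to be far higher in mature leaves of the mutant, since they hold a motif that was frequent among such members. The windows cover 250 bases upstream of the annotated start, are taken from RefSeq (TAIR10.1), overlap no annotated gene and are written 5′ to 3′ along the strand of the gene. The 51 members have the same coordinates there as in the deposited file. Capitals mark the W-box letters TTGACC or TTGACT, or their reverse complements GGTCAA or AGTCAA. The windows lie at chr1:659981-660230 (GSTF7), chr2:12627892-12628141 (GSTU4) and chr2:852322-852571 (GSTF3), all on the minus strand.
GSTF7: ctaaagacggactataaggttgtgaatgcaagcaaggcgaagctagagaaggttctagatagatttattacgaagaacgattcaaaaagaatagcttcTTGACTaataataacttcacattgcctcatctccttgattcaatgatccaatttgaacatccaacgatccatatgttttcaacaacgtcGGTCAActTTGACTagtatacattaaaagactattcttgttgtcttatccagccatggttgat
GSTU4: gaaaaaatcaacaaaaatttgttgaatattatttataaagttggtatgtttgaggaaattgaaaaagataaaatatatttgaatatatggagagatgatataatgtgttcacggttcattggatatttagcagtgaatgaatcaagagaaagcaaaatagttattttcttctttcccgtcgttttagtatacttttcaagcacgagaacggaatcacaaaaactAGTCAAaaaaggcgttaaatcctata
GSTF3: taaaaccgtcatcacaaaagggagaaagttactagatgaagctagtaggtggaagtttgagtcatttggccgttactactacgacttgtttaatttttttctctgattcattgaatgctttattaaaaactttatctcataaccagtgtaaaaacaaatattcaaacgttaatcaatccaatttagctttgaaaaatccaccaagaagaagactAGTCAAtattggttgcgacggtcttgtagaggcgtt

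The W-box is the core recognized by WRKY factors, a plant family known for roles in defence and senescence. On either strand, 27 of 51 members held it in this window (52.9%), among them 13 of 23 tau and 6 of 12 phi members, against 27.8% of the windows of all 32548 genes. Of the 31 members higher in dM than in wM, 21 held it, against 2 of the 11 tested members that were not higher there. At least 2 copies were found in 6 of the 31 and in 5.72% of all windows. Among these 6, GSTU12 and AT5G44990 passed the filter on level (given below) only through dM. Their place among the 31, and so among the 21, was therefore largely set by the filter. TGACG, the core of TGA factor sites, was found in 15 of 51 members and 18.4% of all windows, and the G-box CACGTG in 6 of 51 and 5.90%. The TGACG core and the W-box letters used here differ in the base after TGAC, so that the same copy of TGAC on a strand cannot be counted for both. These 3 motifs were searched, and the W-box was chosen for display after the counts were seen. A match is a description of letters in this window, not a binding site.

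Levels were taken as FPKM (fragments of a gene scaled to its length and to the depth of the library), which the authors computed from reads mapped with HISAT2. The step size of low values gave depths of 17504383 to 27859805 reads, at which 3 reads of a 1 kb gene are worth 0.108 to 0.171 FPKM. The check of the targeted genes held in 3 of 4 comparisons. DPE2 and PHS1 transcripts were lower in dP, dY and dM, but DPE2 stood at 34.6, 36.9 and 38.3 FPKM in dR against 39.1, 32.8 and 19.1 FPKM in the libraries labelled wR, and PHS1 did not separate them either (20.3, 23.1 and 24.6 FPKM in dR against 36.2, 26.7 and 15.2 FPKM in wR). The direction of each comparison with wR rests on the labels. The libraries labelled wR also stood apart in the trend of expression on gene length. Here each protein-coding gene was taken as its deviation from its mean over all libraries, on the log2 scale. The median of the longest genes minus that of the shortest lay between -2.01 and -0.90 in wR and between -0.63 and 0.97 in the other 21 libraries. The groups of mature leaves also differed, with -0.63 to -0.22 in dM against 0.37 to 0.69 in wM. The members tested are short, with a median listed length of 1140 bases against 1734 bases for all genes tested. Markers of the leaf were high in all groups, with sums of 11580 to 30040 FPKM over 5 genes, and the sum was 11580 to 12090 FPKM in dM against 22040 to 23680 FPKM in wM. RBCS1A was the main contributor to this sum, with means of 8986 FPKM in dM and 16456 FPKM in wM. Of the 5 leaf markers, 3 were lower in dM than in wM and 2 were higher. The higher ones were LHCB1.1 (means of 1009 FPKM in dM and 147 FPKM in wM) and LHCB2.1 (426 FPKM in dM and 150 FPKM in wM). The 6 flower markers summed to at most 1.61 FPKM in any library. The 5 root markers summed to 74.4 to 86.7 FPKM in dM and 108 to 133 FPKM in dY, against 0.244 to 0.350 FPKM in wM and 5.14 to 8.37 FPKM in wY, with PYK10, a glucosidase of endoplasmic reticulum bodies, as their main contributor, and to 118 to 123 FPKM in dP against 99.6 to 112 FPKM in wP and 48.2 to 58.3 FPKM in dR against 9.21 to 22.8 FPKM in wR. RCI3, the only other root marker tested, was also called higher in dM than in wM, with means of 0.708 FPKM and 0.0139 FPKM. The highest group mean was 0.0134 FPKM for RHD6, 0.226 FPKM for TIP2;3 and 0.952 FPKM for CASP1. How far cell types other than leaf cells contribute to the members' levels was not tested, and in whole tissue more cells of a type and more RNA per cell cannot be told apart.

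Differences were tested with limma on log2(FPKM + 1) over all 24 libraries, and a gene was called where the adjusted p (Benjamini-Hochberg over 19575 genes) was under 0.05. The filter, a mean of at least 1 FPKM in at least 1 group, was passed by 42 of the 51 members, namely 19 tau, 9 phi and 14 of the other classes. GSTU12 and AT5G44990 passed it only through dM, with means of 2.08 and 1.33 FPKM there. Their next highest means were 0.399 FPKM in dY and 0.931 FPKM in dR, so counts of members higher in dM include them largely by the filter. Of the 9 that did not pass, GSTF11 and AT4G08270 had no read in any library, and GSTU2, GSTU21, GSTU22, GSTU25, GSTF13, GSTF14 and GSTZ2 stayed at or below 0.963 FPKM. Because 1 FPKM is added before taking logs, fold changes of weakly expressed members come out too small.

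**Figure D1:**
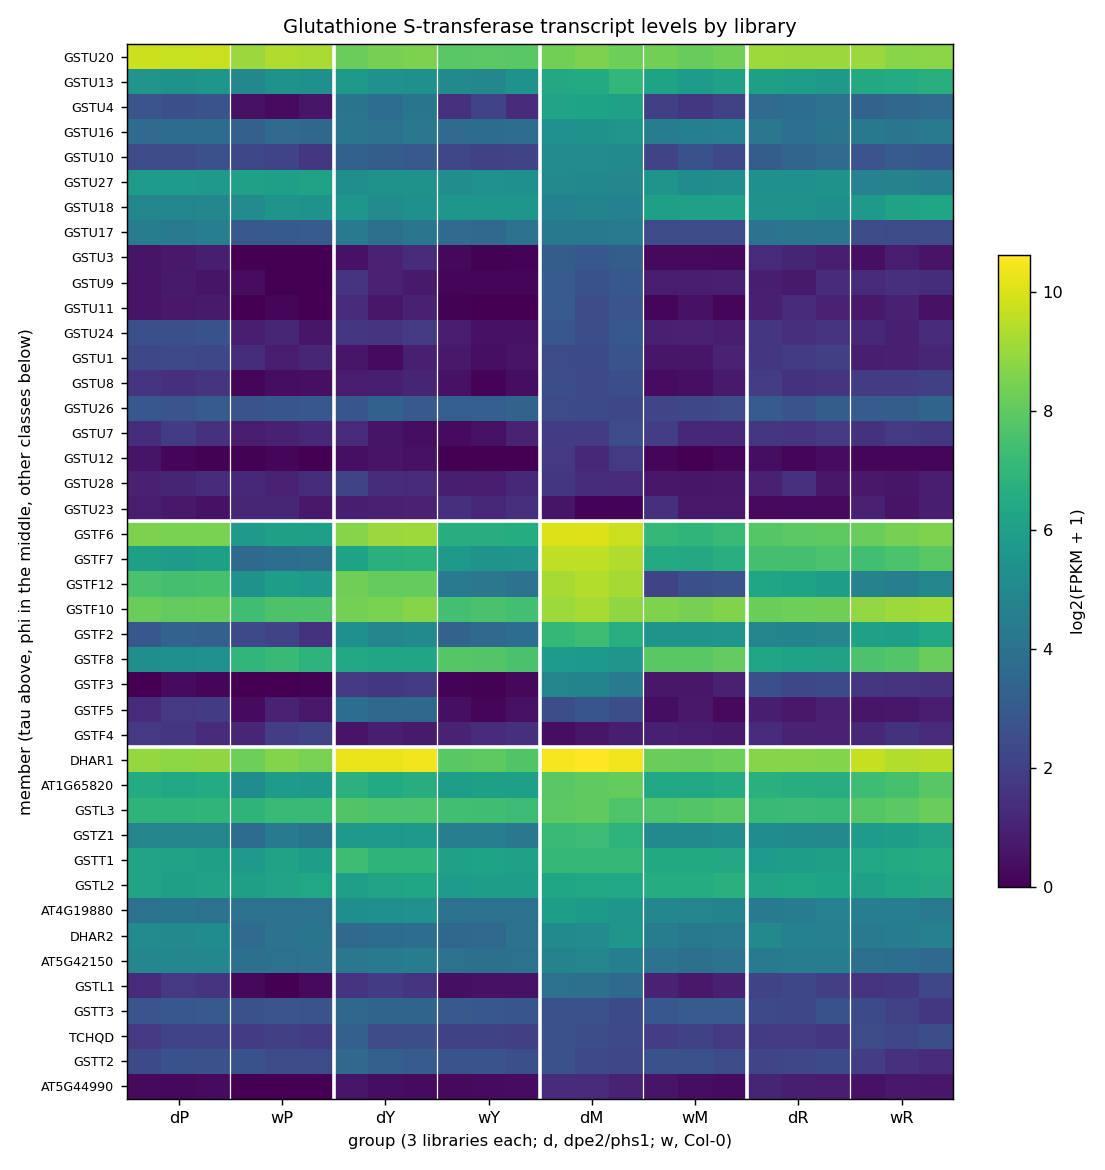
Level of the 42 members tested, as log2(FPKM + 1), in each of the 24 libraries. Each line is a member and each narrow column a library, with the groups dP, wP, dY, wY, dM, wM, dR and wR side by side; tau members stand above, phi in the middle and other classes below, each sorted by the mean in dM. Columns of dM are brighter than those of wM for GSTF6, GSTF7, GSTF12 and GSTU4, and darker for GSTF8.

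A few genes carried most of the level of the family. DHAR1, the cytosolic dehydroascorbate reductase that returns oxidized ascorbate to ascorbate, had the highest mean over all libraries (653 FPKM), followed by GSTU20 (457 FPKM), a tau member known to bind the jasmonate-conjugating enzyme JAR1, and GSTF10 (342 FPKM), a phi member also known as the dehydration-induced ERD13. Summed over the class, phi members reached 3086 ± 307 FPKM in dM against 891 ± 55.8 FPKM in wM (SD, n = 3 each), and 1365 ± 86.5 FPKM in dY against 559 ± 25.5 FPKM in wY. Tau members summed to 702 ± 16.2 FPKM in dM against 524 ± 36.0 FPKM in wM, and to 531 ± 23.4 FPKM in dY against 404 ± 8.78 FPKM in wY. The members of other classes, led by DHAR1, summed to 2431 ± 153 FPKM in dM against 896 ± 40.0 FPKM in wM. All members together came to 6219 ± 449 FPKM in dM and 2311 ± 120 FPKM in wM. The mutant libraries were above those of Col-0 in each class sum of P, Y and M. In R the sums of phi (902 ± 16.1 FPKM in dR, 1392 ± 185 FPKM in wR) and of other classes (905 ± 6.84 FPKM in dR, 1466 ± 69.4 FPKM in wR) were lower in the mutant. With GSTF9 counted in, which alone reached 2149 to 2408 FPKM in dM, the phi sum was 5384 ± 441 FPKM in dM and 2206 ± 105 FPKM in wM. With the named tau genes outside the rule counted in, the tau sum was 1122 ± 86.7 FPKM in dM and 1003 ± 69.2 FPKM in wM. In Y that wider tau sum overlapped, with 818, 830 and 870 FPKM in dY against 730, 749 and 857 FPKM in wY. The size of the tau difference thus depends on which tau genes the rule takes in.

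The 3 members with the highest level differed in how the genotype moved them. GSTU20 had 894, 848 and 865 FPKM in dP against 510, 653 and 620 FPKM in wP (0.56 ± 0.10, adjusted p = 1.8e-04), and 297, 341 and 361 FPKM in dY against 238, 241 and 237 FPKM in wY (0.47 ± 0.10, adjusted p = 4.9e-04). In R it had 537, 519 and 511 FPKM in dR against 512, 418 and 438 FPKM in wR, which overlapped (0.20 ± 0.10, adjusted p = 0.099). GSTF10 had 298, 265 and 276 FPKM in dP against 162, 198 and 198 FPKM in wP (0.59 ± 0.10, adjusted p = 1.2e-04). GSTF10 was also higher in Y, with 339, 358 and 407 FPKM in dY against 170, 188 and 173 FPKM in wY, and in M, with 536, 595 and 456 FPKM in dM against 373, 345 and 384 FPKM in wM, but lower in R, with 296, 305 and 313 FPKM in dR against 470, 530 and 560 FPKM in wR. DHAR1 showed the same turn at another scale. It had 482, 451 and 467 FPKM in dP against 310, 394 and 352 FPKM in wP (0.41 ± 0.09, adjusted p = 0.0015, but 0.055 with quantile normalization and 0.21 with the length trend removed), and 413, 414 and 404 FPKM in dR against 809, 678 and 700 FPKM in wR (-0.82 ± 0.09, adjusted p = 4.6e-07). Of its windows of 100 bases 6.03% are shared with AT1G19550, so that part of its reads cannot be placed with certainty.

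**Figure D2:**
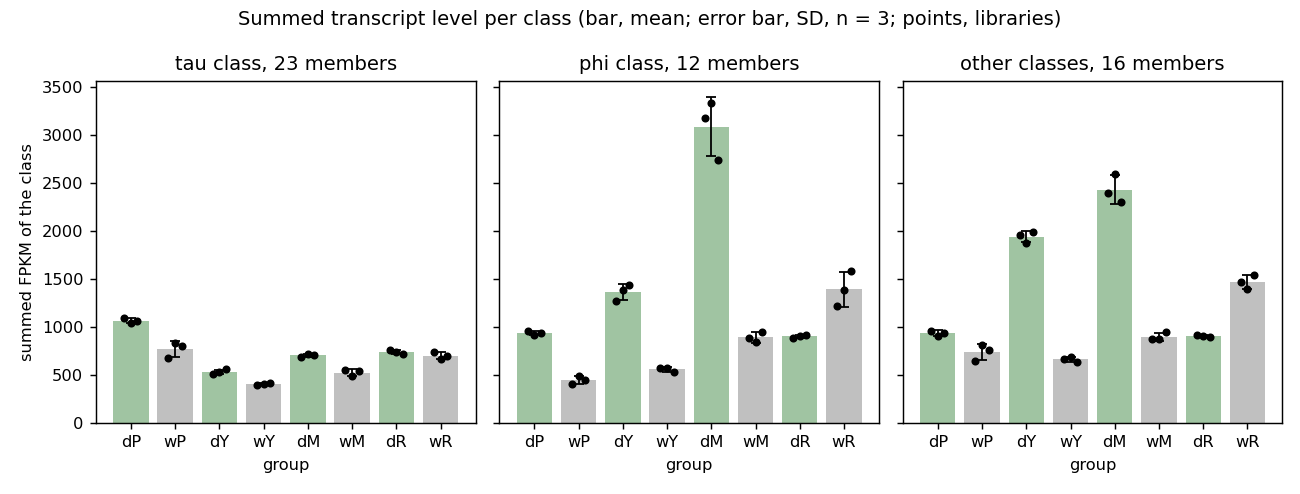
Summed FPKM of the tau, phi and other members in each group; bars are means, error bars the SD of 3 libraries and points the libraries. The phi sum in dM (3086 ± 307 FPKM) is above that of each other group, whereas the tau sum is highest in dP (1065 ± 24.6 FPKM).

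In the Prior Period the question is whether the genotypes differ before the RGN period. The paper reports that granule numbers of the mutant were already slightly shifted downwards at this stage. Of the 42 members tested, 22 were higher and 3 lower in dP than in wP, where 24.3% of all genes tested were higher and 14.9% lower. The median log2 fold change of the members was 0.50, beside 0.06 for all genes. Phi members gave 6 higher and 1 lower of 9 (median 0.94), tau members 10 higher and 2 lower of 19 (median 0.53), and the other classes 6 higher of 14 (median 0.24). More than 2-fold, 11 members were higher and 1 lower, and the shares among all genes were 4.01% and 2.27%. With the trend on gene length removed the counts were 19 higher and 6 lower.

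The 3 largest rises in P were those of GSTF6, GSTU4 and GSTF7. GSTF6, which conjugates glutathione in the synthesis of the phytoalexin camalexin, had 363, 357 and 355 FPKM in dP and 52.9, 64.8 and 62.7 FPKM in wP. The groups lay far apart, with a log2 fold change of 2.56 ± 0.11 (SE, adjusted p = 1.9e-13 by limma). GSTU4, a tau member of the array on chromosome 2, had 5.86, 4.95 and 5.51 FPKM in dP against 0.382, 0.231 and 0.545 FPKM in wP, where 5 to 12 reads stand behind each value. All 3 dP libraries were above those of wP, and the log2 fold change was 2.22 ± 0.16 (adjusted p = 3.7e-10). GSTF7, the pathogen-induced neighbour and close copy of GSTF6, had 63.6, 58.0 and 64.1 FPKM in dP against 11.8, 13.2 and 14.0 FPKM in wP, without overlap (2.17 ± 0.14, adjusted p = 1.2e-10).

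Lower in dP were GSTF8, GSTU18 and GSTU27. GSTF8, a phi member long used as a reporter of early responses to salicylic acid and hydrogen peroxide, had 38.3, 39.4 and 40.4 FPKM in dP against 126, 143 and 114 FPKM in wP. The mutant libraries were all below those of Col-0 (-1.67 ± 0.12, adjusted p = 6.1e-10). GSTU18 had 28.4, 28.3 and 29.1 FPKM in dP against 34.2, 43.5 and 42.8 FPKM in wP (-0.47 ± 0.12, adjusted p = 0.0036), and GSTU27 had 55.5, 57.6 and 52.1 FPKM in dP against 67.1, 63.1 and 69.1 FPKM in wP (-0.27 ± 0.08, adjusted p = 0.016). Neither of these overlapped between the groups, although the adjusted p of GSTU27 was 0.077 without dP replicate 3 and 0.059 without wP replicate 3.

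In young leaves of RGN 31 members were higher and 2 lower in dY than in wY, where 34.6% of all genes were higher and 19.1% lower. The median of the members was 0.64, and that of all genes was itself 0.15 above 0. Phi members gave 7 higher and 2 lower of 9 (median 1.45), tau members 12 higher of 19 (median 0.47) and the other classes 12 higher of 14 (median 0.64). All 3 theta members, a class with peroxidase activity, were higher, by 0.60 to 0.94. With median-of-ratios rescaling the counts were 27 higher and 5 lower, with quantile normalization 24 and 5, and with the length trend removed 25 and 5.

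The largest rise in young leaves was that of GSTF12. GSTF12 is TRANSPARENT TESTA 19, the carrier that brings anthocyanins and proanthocyanidin precursors towards the vacuole. It had 319, 278 and 275 FPKM in dY against 19.0, 17.6 and 15.3 FPKM in wY, far apart, with a log2 fold change of 3.997 ± 0.14 (adjusted p = 1.8e-16). GSTF5, between GSTF6 and GSTF4 on chromosome 1, had 13.4, 11.1 and 11.02 FPKM in dY against 0.345, 0.129 and 0.410 FPKM in wY, also without overlap (3.31 ± 0.17, adjusted p = 3.9e-13). DHAR1 had 1262, 1254 and 1354 FPKM in dY against 237, 250 and 212 FPKM in wY (2.47 ± 0.09, adjusted p = 1.3e-15). Each of the dY libraries held at least 5 times the DHAR1 level of any wY library.

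Lower in dY were GSTF8 and GSTF4. GSTF8 had 81.0, 77.0 and 74.2 FPKM in dY against 226, 216 and 187 FPKM in wY, without overlap (-1.42 ± 0.12, adjusted p = 1.6e-09). GSTF4 was low throughout, with 0.467, 0.831 and 0.688 FPKM in dY against 1.03, 1.54 and 1.71 FPKM in wY (-0.54 ± 0.20, adjusted p = 0.029). This call was lost without dY replicate 1 (adjusted p = 0.11), dY replicate 3 (0.052), wY replicate 2 (0.078) or wY replicate 3 (0.11). GSTF4 overlaps the gene AT1G02952 on the other strand over 1014 bases. AT1G02952 had a level above 0 only in dY replicate 3 (0.723 FPKM) and wM replicate 1 (0.318 FPKM).

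In mature leaves of RGN the 42 members tested gave 31 higher and 6 lower in dM than in wM. Among all genes 36.6% were higher and 32.5% lower, so that the genes tested as a whole moved in both directions in like number. The median log2 fold change of the members was 0.89, beside 0.05 for all genes. Phi members gave 7 higher and 1 lower of 9 (median 2.17), tau members 14 higher and 3 lower of 19 (median 1.49) and the other classes 10 higher and 2 lower of 14 (median 0.75). With the named genes outside the rule counted in, tau gave 14 higher and 4 lower of 22 (median 0.83). Phi then gave 8 higher and 1 lower of 10 (median 1.83). More than 2-fold, 20 members were higher and 2 lower, against 14.4% and 13.9% of all genes. The length trend also separated dM from wM, and with it removed 29 members were higher and 8 lower, with a median of 0.68. In either direction 37 of the 42 members were called, beside 69.1% of all genes.

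**Figure D3:**
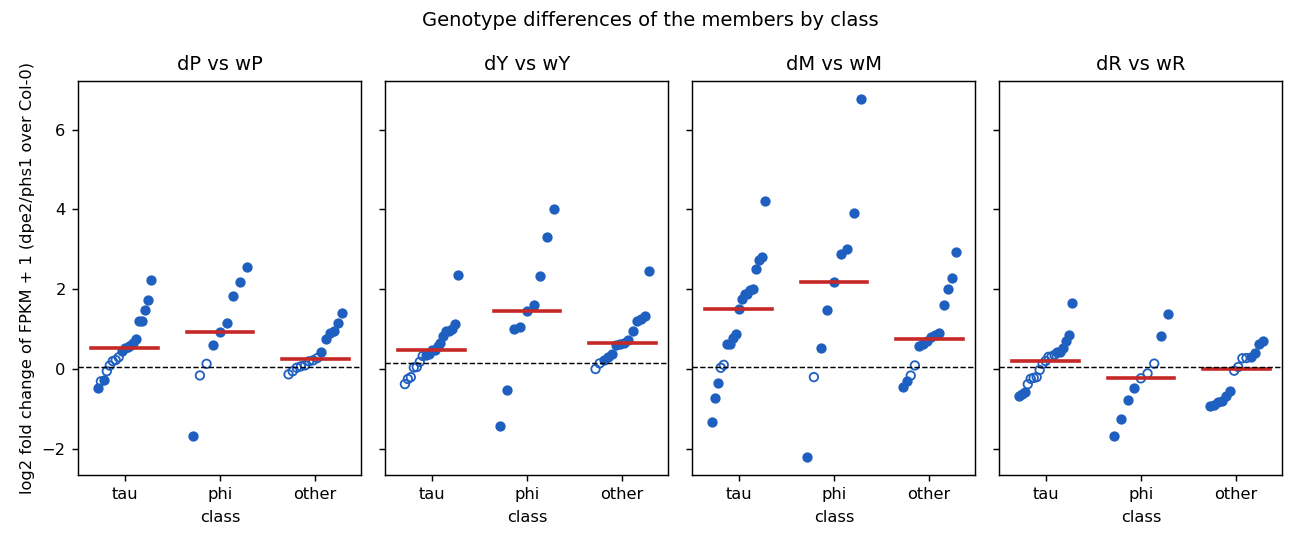
Log2 fold change of FPKM + 1 (dpe2/phs1 over Col-0) of each member tested in P, Y, M and R, by class. Filled points passed the test (adjusted p under 0.05) and open points did not; the red line is the class median and the dashed line the median of all genes tested. The red line of phi lies at 2.17 in M and at -0.24 in R.

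GSTF12 showed the largest difference of any member. It had 598, 671 and 576 FPKM in dM against 3.57, 5.06 and 5.49 FPKM in wM, a ratio of means of 131 and a log2 fold change of 6.77 ± 0.14 (adjusted p = 1.2e-20). Between 106 and 135 reads stand behind the wM values, and the last 108 bases of the gene overlap AT5G17230 on the other strand. GSTU4 had 72.6, 70.3 and 66.4 FPKM in dM against 2.99, 2.31 and 3.14 FPKM in wM (4.22 ± 0.16, adjusted p = 4.4e-16). GSTF3, a close copy of the camalexin- and flavonoid-binding GSTF2 with 93.8% identity between their transcripts, had 27.5, 26.8 and 20.6 FPKM in dM against 0.618, 0.600 and 0.938 FPKM in wM (3.91 ± 0.13, adjusted p = 4.1e-17). For these 3 members each dM library was more than 20 times above each wM library.

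The neighbours GSTF6 and GSTF7 were again high in the mutant. GSTF6 had 1045, 1047 and 880 FPKM in dM against 134, 122 and 147 FPKM in wM (2.87 ± 0.11, adjusted p = 1.6e-15), and GSTF7 had 779, 779 and 659 FPKM in dM against 89.4, 83.3 and 103 FPKM in wM (2.99 ± 0.14, adjusted p = 3.0e-14). Their transcripts are 92.4% identical, so that reads could in part be assigned to the wrong copy, although 1.5% of the windows of 100 bases are shared. GSTZ1, the maleylacetoacetate isomerase of tyrosine breakdown, had 143, 155 and 116 FPKM in dM against 32.9, 32.3 and 35.9 FPKM in wM (1.99 ± 0.13, adjusted p = 8.9e-12). DHAR1 had 1417, 1565 and 1350 FPKM in dM against 290, 285 and 311 FPKM in wM (2.28 ± 0.09, adjusted p = 3.2e-15). None of these 4 overlapped between the genotypes.

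Some low tau members moved with them, but not all. GSTU26 had means of 4.14 FPKM in dM and 4.05 FPKM in wM, and GSTU23 was lower in dM, as given below. GSTU3, GSTU8, GSTU9, GSTU10, GSTU11 and GSTU24, the last known to take part in the detoxification of the explosive TNT, were at 4.08 to 33.6 FPKM in the dM libraries and at 0.123 to 5.35 FPKM in those of wM. Their log2 fold changes lay between 1.87 and 2.82. GSTL1 of the lambda class had 14.4, 14.1 and 11.5 FPKM in dM against 1.11, 0.635 and 0.916 FPKM in wM (2.93 ± 0.16, adjusted p = 4.2e-13), and the microsomal AT1G65820 had 236, 261 and 272 FPKM in dM against 81.7, 79.5 and 90.4 FPKM in wM (1.60 ± 0.14, adjusted p = 1.6e-09). In both cases the genotypes were well apart.

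Lower in dM were GSTF8, GSTU18, GSTU23, GSTU27, GSTL2 and GSTT3. GSTF8 had 56.7, 54.1 and 47.1 FPKM in dM against 236, 238 and 264 FPKM in wM (-2.20 ± 0.12, adjusted p = 4.1e-13). GSTU18 had 24.7, 26.7 and 24.4 FPKM in dM against 63.8, 65.8 and 66.2 FPKM in wM (-1.34 ± 0.12, adjusted p = 1.6e-09), while its neighbour GSTU17 (ERD9), a tau member linked to light and drought responses, had 18.4, 18.5 and 19.1 FPKM in dM against 4.42, 4.37 and 4.34 FPKM in wM (1.87 ± 0.10, adjusted p = 4.9e-13). The pair lies head to tail on chromosome 1 with 71 bases in common, and its copies changed in opposite directions. GSTU23 had 0.510, 0.0709 and 0.0642 FPKM in dM against 1.78, 0.649 and 0.664 FPKM in wM (-0.72 ± 0.18, adjusted p = 0.0015), where 1 to 8 reads stand behind the dM values. GSTU20, the tau member with the highest level, had 328, 362 and 311 FPKM in dM and 325, 281 and 326 FPKM in wM, which overlapped (0.10 ± 0.10, adjusted p = 0.38).

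**Figure D4:**
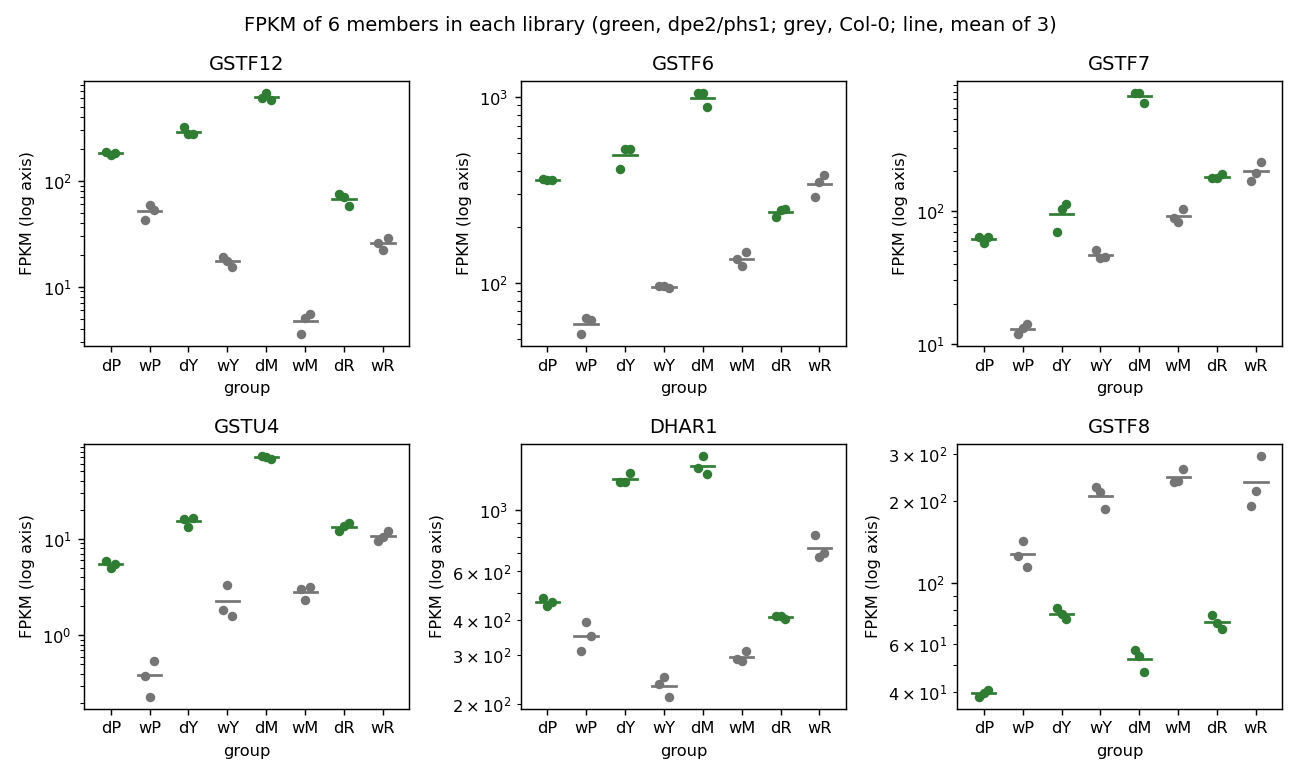
FPKM on a log axis of GSTF12, GSTF6, GSTF7, GSTU4, DHAR1 and GSTF8 in each library of the 8 groups (green, dpe2/phs1; grey, Col-0; line, mean of 3). In GSTF12 the mutant libraries reach 576 to 671 FPKM in dM and those of Col-0 stay at 3.57 to 5.49 FPKM in wM, whereas GSTF8 is lower in the mutant in each pair.

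In the Recovery Period the members no longer moved mainly in one direction, with 12 higher and 13 lower in dR than in wR, where 31.6% of all genes were higher and 25.2% lower. The median of the members was 0.01 and that of all genes 0.05. Phi members gave 2 higher and 4 lower of 9 (median -0.24), tau members 6 higher and 3 lower of 19 (median 0.20) and the other classes 4 higher and 6 lower of 14 (median 0.00). With the length trend removed the counts were 20 higher and 11 lower, and with quantile normalization 9 higher and 16 lower.

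GSTU17 was the largest rise in R, with 15.5, 16.9 and 16.9 FPKM in dR against 4.72, 4.38 and 4.45 FPKM in wR (1.66 ± 0.10, adjusted p = 7.0e-11). GSTF12 had 74.5, 69.4 and 58.2 FPKM in dR against 26.0, 22.02 and 28.6 FPKM in wR (1.36 ± 0.14, adjusted p = 6.5e-08), and GSTU1 had 2.18, 2.58 and 3.01 FPKM in dR against 0.856, 0.928 and 1.19 FPKM in wR (0.85 ± 0.17, adjusted p = 2.1e-04). In these 3 members the groups did not overlap.

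The largest falls in R were those of GSTF8, GSTF2 and GSTZ1. GSTF8 had 76.3, 71.4 and 67.9 FPKM in dR against 192, 219 and 294 FPKM in wR (-1.67 ± 0.12, adjusted p = 5.9e-10). GSTF8 thus passed the test as lower in the mutant in all 4 genotype comparisons. It contains the locus AT2G47720 on the same strand, which had no read in any library. GSTU18 passed in P, M and R, and its value in Y missed the threshold (-0.25 ± 0.12, adjusted p = 0.079). GSTF2 had 28.5, 27.0 and 29.5 FPKM in dR against 65.4, 63.3 and 78.0 FPKM in wR (-1.25 ± 0.18, adjusted p = 9.1e-06), and GSTZ1 had 34.6, 31.6 and 31.0 FPKM in dR against 55.4, 58.5 and 73.4 FPKM in wR (-0.92 ± 0.13, adjusted p = 6.6e-06). GSTF2 shares 1442 bases with AT4G02510 on the other strand, the gene of an import receptor of the chloroplast envelope, at 41.3 to 58.4 FPKM in dR and 6.64 to 19.8 FPKM in wR. The sources used here do not state whether the libraries mark strand, so how reads of the shared bases were assigned is not known. In wP the pair stood far apart, with AT4G02510 at 74.7 to 134 FPKM and GSTF2 at 1.93 to 4.01 FPKM. How far reads of either gene enter the value of the other was not tested.

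The second question is whether members differ between leaf ages, and whether the genotype changes this. In the mutant 26 members were higher and 8 lower in dM than in dY, although only 26.5% of all genes were higher and 41.2% lower. The median was 0.90 for the members and -0.16 for all genes. In Col-0 20 members were higher and 3 lower in wM than in wY (18.8% and 25.2% of all genes), with a median of 0.30, beside -0.07 for all genes. In each genotype the mature leaves thus held more members above than below the young leaves. The length trend differed between the leaf ages of the mutant, with -0.63 to -0.22 in dM and 0.14 to 0.73 in dY. In Col-0 it was alike, with 0.37 to 0.69 in wM and 0.38 to 0.68 in wY. The difference between both changes, (dM - wM) - (dY - wY), was above 0 for 20 members and below 0 for 10 (20.8% and 27.9% of all genes), with 11 of 19 tau members above 0 and 3 below. By sign alone, called or not, phi members were divided when each library was left out in turn. GSTF12, GSTF3, GSTF7, GSTF6 and GSTF4 stayed above 0, GSTF5, GSTF8 and GSTF10 stayed below, and GSTF2 fell on both sides.

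GSTF12 showed the largest such difference, 2.77 ± 0.19 (adjusted p = 2.7e-10). It was higher in mature than in young leaves of the mutant (598, 671 and 576 FPKM in dM, 319, 278 and 275 FPKM in dY), and lower in mature than in young leaves of Col-0 (3.57, 5.06 and 5.49 FPKM in wM, 19.0, 17.6 and 15.3 FPKM in wY). GSTF3 followed with 2.30 ± 0.18 (adjusted p = 1.3e-09), with 27.5, 26.8 and 20.6 FPKM in dM and 2.35, 2.29 and 2.48 FPKM in dY, while the wM and wY libraries were at or below 0.938 FPKM. The value of GSTF3 depends on the scale at these low levels, and limma-voom on recovered reads gave 0.78 (adjusted p = 0.33). Of the opposite sign were GSTF5 (-1.14 ± 0.25, adjusted p = 6.7e-04, but 0.055 by limma-voom) and GSTU18 (-1.08 ± 0.17, adjusted p = 2.0e-05). GSTF5 had 4.79, 6.10 and 4.87 FPKM in dM and 13.4, 11.1 and 11.02 FPKM in dY, so the older leaves were lower without overlap.

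Between R and P the mutant had 11 members higher and 10 lower in dR than in dP (13.5% and 22.1% of all genes), with a median of 0.09, beside -0.10 for all genes. The log2 fold changes ran between -1.43 (GSTF12) and 2.28 (GSTF3). In Col-0 27 members were higher and 6 lower in wR than in wP (33.0% and 38.6% of all genes), with a median of 0.64, beside -0.06. With the length trend removed the Col-0 counts were 21 higher and 14 lower. GSTF6 had 225, 245 and 250 FPKM in dR against 363, 357 and 355 FPKM in dP, but 287, 346 and 380 FPKM in wR against 52.9, 64.8 and 62.7 FPKM in wP. The libraries of each pair were apart, in opposite directions. The difference of both changes, (dR - wR) - (dP - wP), was -3.05 ± 0.16 for GSTF6 (adjusted p = 6.1e-12). It passed the test above 0 for 3 members and below 0 for 20 (25.3% and 26.6% of all genes). This contrast was added after values had been seen.

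Members that lie next to each other did not always change alike. Within 10000 bases of a neighbour of the family, 30 members fell into 12 tandem arrays. In the phi array on chromosome 1 (chr1:658578-666471) GSTF7, GSTF6 and GSTF5 rose in P, Y and M, whereas GSTF4 gave -0.16 ± 0.20 in P, -0.54 ± 0.20 in Y and -0.20 ± 0.20 in M. In the tau array on chromosome 2 (chr2:12617936-12632538) GSTU4 and GSTU3 rose in P, Y and M, with GSTU3 at 7.82, 6.55 and 7.77 FPKM in dM against 0.201, 0.195 and 0.166 FPKM in wM (2.82 ± 0.16, adjusted p = 9.0e-13). The adjacent GSTU5, which is no member by description, was lower in the same 3 comparisons (-0.96 ± 0.09 in M, adjusted p = 4.6e-09). In the theta array on chromosome 5 all 3 genes were higher in dY than in wY, but in M GSTT1 was higher (0.63 ± 0.10), GSTT3 lower (-0.45 ± 0.14) and GSTT2 not called (-0.17 ± 0.16).

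**Figure D5:**
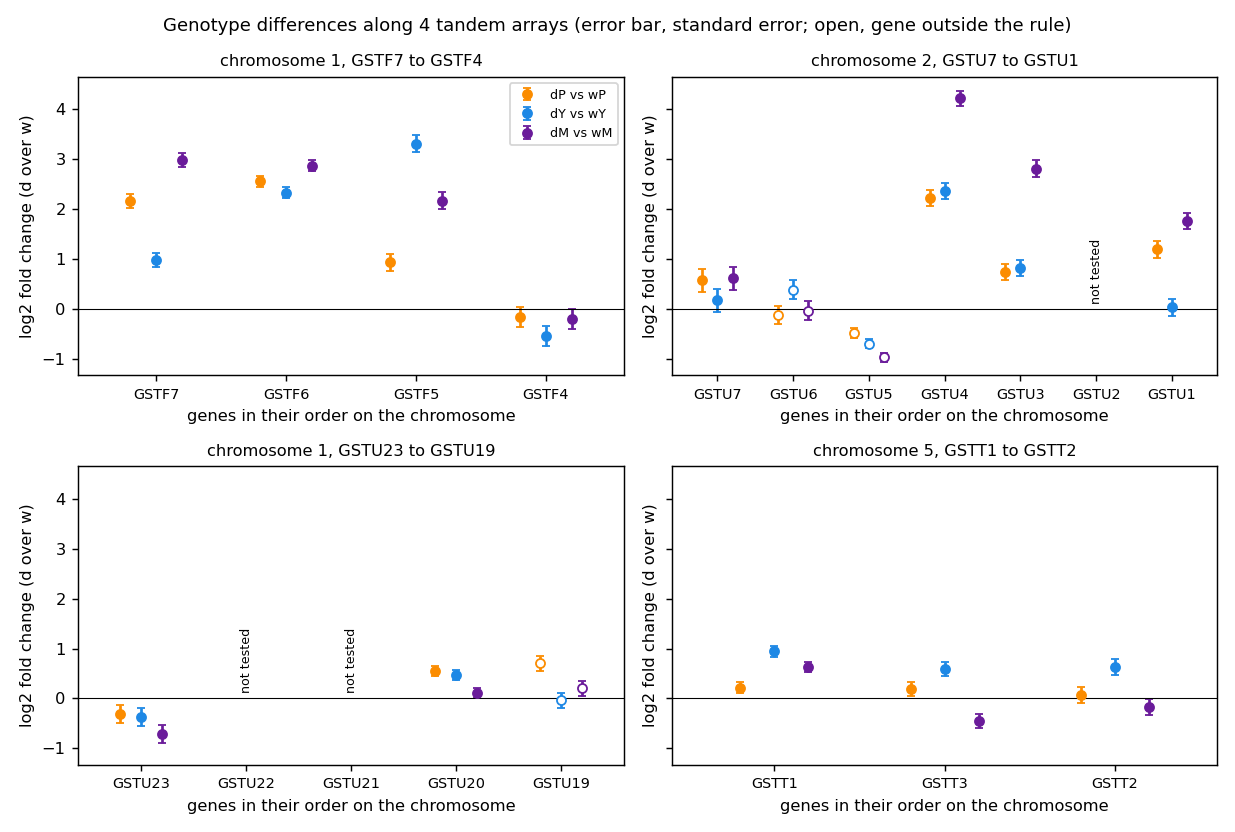
Log2 fold changes (dpe2/phs1 over Col-0) with their standard errors along 4 tandem arrays, with the genes in their order on the chromosome; colours stand for P, Y and M, and open points are genes outside the rule. GSTU4 reaches 4.22 in M, and the neighbouring GSTU5 lies at -0.96.

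A list of 30 genes for the synthesis, breakdown, reduction, use and transport of glutathione held 28 genes that are no members, of which 26 were tested. Of these, 9 were higher and 6 lower in P (24.3% and 14.9% of all genes), and 10 were higher and 6 lower in Y (34.6% and 19.1%). In M 10 were higher and 8 lower (36.6% and 32.5%), and in R 10 were higher and 11 lower (31.6% and 25.2%). Their medians were -0.01 in P, 0.28 in Y, 0.06 in M and 0.01 in R. GSH1, the first enzyme of synthesis, was lower in M, with 124, 113 and 111 FPKM in dM against 145, 144 and 142 FPKM in wM (-0.31 ± 0.13, adjusted p = 0.036). The reductases that regenerate glutathione were both higher in all 4 genotype comparisons, and GR1, the cytosolic form, had 91.0, 88.0 and 85.1 FPKM in dM against 39.2, 36.3 and 38.1 FPKM in wM (1.20 ± 0.12, adjusted p = 1.8e-08). Of the peroxidase-like genes, GPX6 had 747, 692 and 695 FPKM in dM against 153, 151 and 174 FPKM in wM (2.15 ± 0.09, adjusted p = 5.1e-15).

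Of the genes for breakdown, GGCT2;1, which cleaves glutathione in the cytosol, had 23.7, 23.1 and 26.0 FPKM in dM against 0.440, 0.596 and 0.821 FPKM in wM (3.97 ± 0.16, adjusted p = 1.7e-15). The apoplastic gamma-glutamyl transpeptidase GGT1 was lower in all 4 genotype comparisons, with 12.2, 11.2 and 10.9 FPKM in dM against 27.2, 25.3 and 28.7 FPKM in wM (-1.18 ± 0.09, adjusted p = 3.0e-10), and so was CLT2, a transporter of glutathione out of the plastid (-1.55 ± 0.11 in M, adjusted p = 7.0e-11). Of the vacuolar ABC transporters of conjugates, ABCC1 was lower in M (-0.63 ± 0.25, adjusted p = 0.029), and ABCC2 missed the threshold (-0.35 ± 0.21, adjusted p = 0.15). ABCC3 (means of 13.8 FPKM in dM and 12.4 FPKM in wM) and ABCC4 (26.6 FPKM in dM and 34.5 FPKM in wM) were not called. The longest genes as a set lay lower in dM than in wM, and no value of these transporters with the length trend removed is given here. The class II TGA factors, known to bind TGACG in promoters of these genes, gave 2 of 3 higher in M (36.6% of all genes). These were TGA5 by 0.56 ± 0.13 and TGA6 by 0.67 ± 0.14. In P 1 of 3 was higher (24.3% of all genes), in Y 3 of 3 (34.6%) and in R 2 of 3 (31.6%). Whether these factors act on the members here was not tested.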

How the data were processed

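Gene expression had been measured by RNA-seq in 24 libraries (8 groups of 3), and groups were assigned from the sample labels. The authors mapped the reads with HISAT2 to TAIR10, and the submitters' processing notes also name CASAVA and featureCounts. The authors deposited FPKM values of 33044 genes, and listed gene lengths in bases as another deposited value. Versions are not given in the sources used here. The authors' DESeq2 test on counts was not repeated. Reads recovered from the FPKM values, as described below, served only for limma-voom, the replicate chi-square and the read numbers given.

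Low values are whole multiples of a step. Library totals and gene lengths fitted to these steps turned 100% of nonzero values of 26453 detected genes into whole reads (tolerance 0.01), against 55.8% with the listed lengths. Totals lay between 17504383 and 27859805 reads. The mean chi-square per gene between replicates was 2.50 to 68.4, so no pair agreed within sampling noise. The labels do not say whether replicates came from separate plants, so p-values measure the spread between these libraries.

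Expression on the log2(FPKM + 1) scale was tested by limma-trend (limma 3.58.1 under R 4.3.3), with 1 mean per group over 24 libraries, for 19575 genes with a mean of at least 1 FPKM in at least 1 group, with Benjamini-Hochberg adjustment over all of them. The steps were tested on simulated data. Members named with every library were the 3 largest rises and falls of each genotype comparison that passed the test without overlap between the libraries, the 3 members with the highest mean level and the 2 largest values in each direction of the difference between leaf ages. Other members and pathway genes are named as examples chosen after their values were seen. The members and lists were chosen with earlier results of these data known.

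Alternatives changed the pseudocount (0.1), the filter (none, or 5 FPKM), the scaling (quantile normalization, or median-of-ratios rescaling) or the fit (compared groups alone, or replicate number as a block). Others were removal of the loess trend on gene length, limma-voom on recovered reads, and each library left out in turn. Sequences and motifs were read from the RefSeq genome TAIR10.1, where 32532 of 32548 matched genes have the deposited coordinates. Identity was taken from global alignments of spliced transcripts, and shared stretches from windows of 100 bases. In RefSeq, 15 of 51 members overlap another gene. Other steps used Python 3.11.15, numpy 2.4.6, pandas 2.3.3, scipy 1.17.1 and matplotlib 3.10.9.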

Additional observations from a re-analysis of the deposited data

Results flagged for a closer look

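The genotype difference was not the same in mature and young leaves. The interaction (dM - wM) - (dY - wY) passed the test above 0 for 20 members and below 0 for 10, and the largest values were 2.77 for GSTF12, 2.30 for GSTF3, -1.14 for GSTF5 and -1.08 for GSTU18. It also differed between the Recovery and the Prior Period, where (dR - wR) - (dP - wP) passed the test above 0 for 3 members and below 0 for 20. The length trend of the libraries labelled wR and the levels of DPE2 and PHS1 there are given above, and their part in this count was not tested beyond the removal of the trend, which gave 7 above 0 and 14 below. With 3 libraries per group, single libraries were not tested for outlying values.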

How the results depend on the processing

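Depth limits the members below about 1 FPKM: 3 reads on 1 kb are 0.108 to 0.171 FPKM, and 9 members were left untested. In mature leaves the count of higher members was between 25 (filter of 5 FPKM) and 31 under every alternative run, and that of lower members between 5 and 8. Counts that changed more than 1.5 times were as follows. With the length trend removed, 6 members were lower in dP than in wP and 5 in dY than in wY. Under the same removal 20 were higher in dR than in wR, 14 were lower in wR than in wP, and 7 passed the test above 0 in (dR - wR) - (dP - wP). The lower count in dY was 1 with the filter of 5 FPKM, under which 34 members were tested, and 5 with median-of-ratios rescaling and with quantile normalization. With the compared groups alone in the fit, 7 members were higher in dR than in wR and 5 lower in wM than in wY. Quantile normalization moved the median of all genes to -0.03 in dY against wY, with 24 members higher there. Apart from these alternatives' own construction, the cause was not tested.

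With each library left out in turn, the counts higher and lower were 21 to 23 and 2 to 4 in dP against wP, 28 to 31 and 1 to 2 in dY against wY, 30 to 31 and 6 in dM against wM, 9 to 12 and 13 to 14 in dR against wR, 25 to 27 and 8 to 9 in dM against dY, 18 to 20 and 3 to 4 in wM against wY, 9 to 11 and 8 to 10 in dR against dP, 26 to 28 and 6 to 7 in wR against wP, 20 to 21 and 8 to 10 in the interaction with leaf age, and 2 to 3 and 18 to 21 in that with the period. The lower count in dY was 1 without dY replicate 3, wY replicate 2 or wY replicate 3. Replicate numbers did not pair the samples, as the deviations of same-numbered libraries correlated at -0.41 to 0.11. With a replicate block the counts were 22 and 3 in P, 31 and 2 in Y, 31 and 6 in M and 12 and 13 in R.

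The sign reversed for 4 values. GSTU20 in (dR - wR) - (dP - wP), called at -0.36, was 0.11 with the length trend removed, and GSTF3 in the same contrast, called at 0.69, was -0.22 with limma-voom. GSTU18 there and GSTF5 in wR against wP were not called (-0.16 and 0.03), but passed the test with the other sign once the length trend was removed (0.37 and -0.47). Of all 2886 values of named members under an alternative (180 results), 2784 kept their direction and side of the threshold, 55 fell below the threshold, 43 passed it and 4 reversed.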
